A study of Mus musculus with 4 samples.

Results

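Axon guidance genes of the Eph, ephrin, semaphorin, plexin, neuropilin, Slit, Robo and netrin families were examined in cultured mouse forelimbs in which Hedgehog signalling had been inhibited. They were taken by gene name from the deposited expression table, which gave 63 of its 17568 genes: 14 Eph receptors, 8 ephrins, 20 semaphorins, 11 plexins and neuropilins, 5 Slits and Robos, and 5 genes of netrin and its receptors. Swiss Webster embryos, wild type and at E10.25 (31 to 34 somites), gave all forelimbs, which were cultured in control medium for 2 libraries and in medium with cyclopamine for the other 2. Cyclopamine is a plant alkaloid that blocks Smoothened, the protein that passes the Hedgehog signal into the cell. RNA was sequenced on the SOLiD platform, and the libraries are described as biological replicates without the number of embryos or cultures in each, so the p-values measure the spread between these libraries only. Not given in the sources used here: dose, vehicle and length of culture.

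Guidance genes encode ligands and receptors that steer growing axons, migrating cells and sprouting vessels by attraction or repulsion. Ephrins are ligands held on the cell surface and Eph receptors are tyrosine kinases, so that they signal between touching cells. Semaphorins, some secreted and some spanning the membrane, act through plexins, with neuropilins as co-receptors for most secreted ones. Slits are secreted repellents read by Robo receptors, and netrin attracts through Dcc and Neo1 and repels through the Unc5 receptors. In the limb bud these genes are known from mesenchyme that sorts motor axons, from muscle precursors on their way into the limb and from the forming vessels.

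The deposited values correspond to between 9779589 and 13555492 gene-assigned reads per library, and a floor of 3 reads lies between 0.22 and 0.31 CPM (normalized counts per 1000000 reads). Floors cover counting error only. The treatment was visible in the Hedgehog target Gli1, which measured 56.2 and 56.7 CPM in control libraries and 8.05 and 4.70 CPM with cyclopamine (log2 fold change -3.10, SE 0.23, limma adjusted p = 4.32e-06). Limb mesenchyme markers summed to between 2084 and 2508 CPM over 11 genes in the 4 libraries, and 0 of them were at 0 throughout. Markers of other tissues that carry guidance genes were present too. The 19 neural tube and neuron markers in the table summed to 175 and 221 CPM in control libraries and 111 and 111 CPM with cyclopamine. In cyclopamine 15 of the 15 tested were lower, against 49.0% of all genes tested. A limma adjusted p under 0.05, the threshold used throughout, was reached by 7 of them, against 0.28% of all genes tested. Ina, Neurod4 and Neurog2 of that list had 0 reads in both cyclopamine libraries. The 12 endothelial markers summed to 552 and 530 CPM against 614 and 664 CPM. Of them 12 of 12 were higher, against 6921 of all 13568 genes tested, and 0 passed the threshold. In RNA of whole limb buds, fewer cells of a type and less RNA per cell cannot be told apart.

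Of the 63 genes, 60 reached a mean of 1 CPM and were tested. Epha10 and Epha6 stayed below that level, at a mean of 0.572 and 0.969 CPM. Plxnb3 was at the floor, with 2 reads in each control, 2 in cyclopamine 1 and 0 in cyclopamine 2. Levels of different genes were compared as CPM per kilobase of exon (mean of the 4 libraries, exons of protein-coding transcripts in the basic GENCODE set). On that scale the leading Eph receptors were Epha4 at 43.2 and Ephb4 at 38.5, above Epha3 at 12.5 and Ephb3 at 11.2. Efnb2, a transmembrane ephrin of arteries and mesenchyme, led the ephrins at 42.3, followed by Efnb1 at 26.1 and Efna5 at 22.7. Among semaphorins the highest were Sema3f at 29.6, Sema5a at 22.1 and Sema3a at 19.8. Plxnb2 stood at 45.2 and Nrp2 at 31.5. Robo1 (24.8) stood above Slit3 (15.2), Robo2 (9.95) and Slit2 (7.18), and Neo1 (32.8) and Unc5b (27.2) stood far above Dcc (1.56). These orders depend on the exons counted. Nrp1 measured 45.9 per kilobase with these exons and 16.9 with the exons of all annotated transcripts, and Robo1 measured 24.8 and 11.4. Slit1 was close to the bottom at 0.378.

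**Figure D1:**
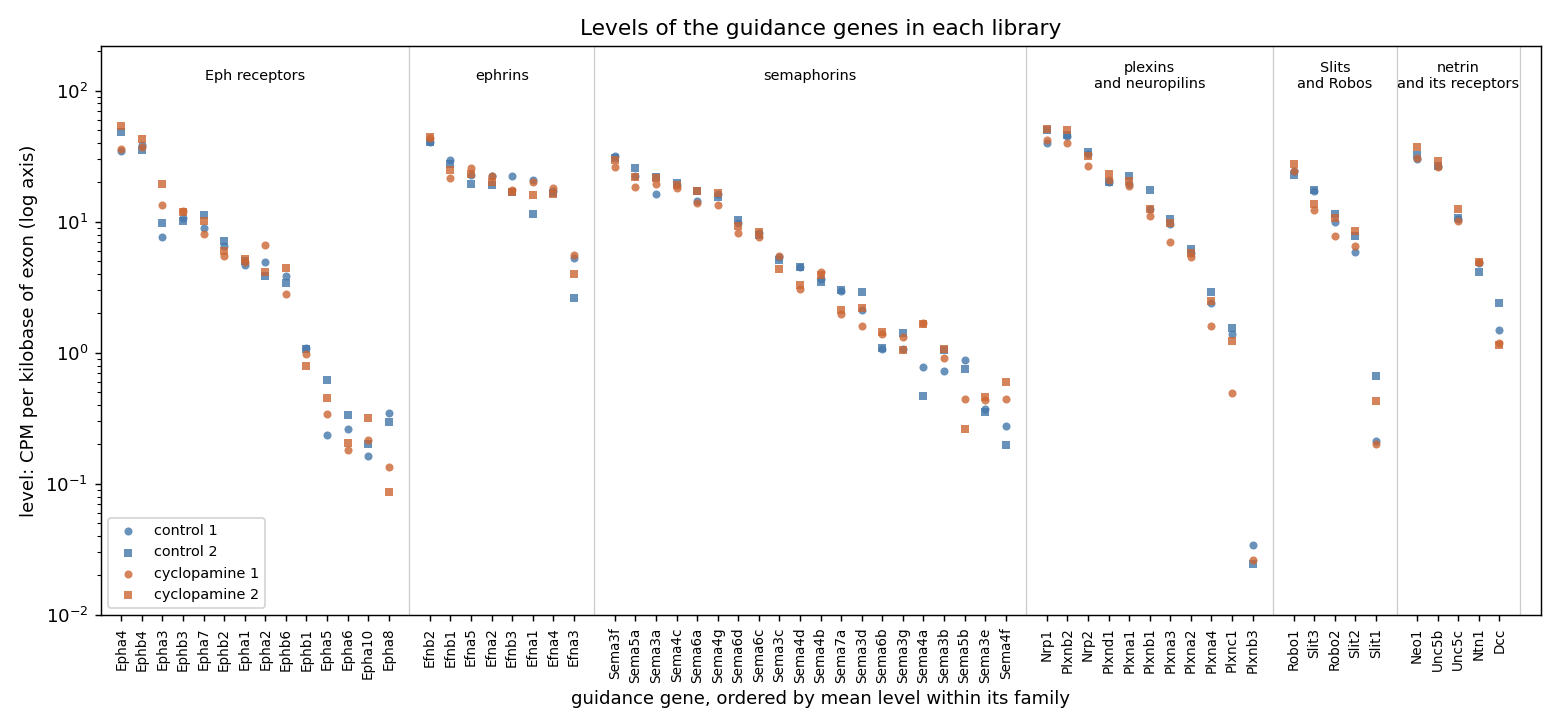
Level of each of the 63 guidance genes as CPM per kilobase of exon (log axis), by family, with circles for replicate 1, squares for replicate 2, blue for control and orange for cyclopamine; a library with 0 reads has no point. Epha3 and Sema4a show both cyclopamine points above both controls. Epha3, Epha4, Nrp1 and Slit2 show replicate 2 above replicate 1 in both conditions.

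The comparison asked which of these transcripts differ when Hedgehog signalling is inhibited. Genes were compared with limma on log2(CPM + 0.5), fitted over all 13568 genes that reached 1 CPM, and fold changes below are on that scale. With Benjamini-Hochberg adjustment over all genes, 0 of 60 guidance genes passed 0.05 in limma, against 0.28% of all genes tested (0.0442% higher, 0.236% lower). EdgeR's quasi-likelihood test on recovered reads called 0 as well, against 0.295% of genes. DESeq2 called 1, Epha3, against 0.383%, and the authors' deposited table marks 1 of the 63, again Epha3, against 0.455% of its genes. At an unadjusted p under 0.05, 7 of 60 (11.7%) differed, against 5.82% of all genes (3.04% higher, 2.78% lower): Epha3 and Sema4a were higher in cyclopamine, and Dcc, Sema5b, Slit3, Plxnc1 and Sema4d were lower. The 2 cyclopamine libraries lay on the same side of both controls for 26 of 60 genes (11 above, 15 below), or 43.3%, against 32.6% of all genes (16.8% above, 15.8% below). A log2 fold change of at least 0.5 in size was seen in 8 of 60 (13.3%), against 8.48% of all genes, and all 8 had groups apart, against 6.67%. The median over the 60 was -0.03, against 0.00 over all genes tested, with 28 higher and 32 lower. The 28 genes outside the naming rule, 3 of them untested, ran from -0.38 for Sema3d to 0.36 for Sema6b. Leaving out 1 library moved the fold change by over 1.5 times, or turned it, in 45 of 60 genes for at least 1 library. Small values below are therefore imprecise. The same count was not made over all genes, so it does not set the guidance genes apart. Of the 7 genes at an unadjusted p under 0.05, Sema4a and Plxnc1 share exon sequence with another annotated gene, as do Efna3, Efna4, Ephb4, Nrp1, Plxna1, Plxna4, Plxnb1, Sema4c and Unc5c among those described below, so part of their reads could belong to the neighbour.

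**Figure D2:**
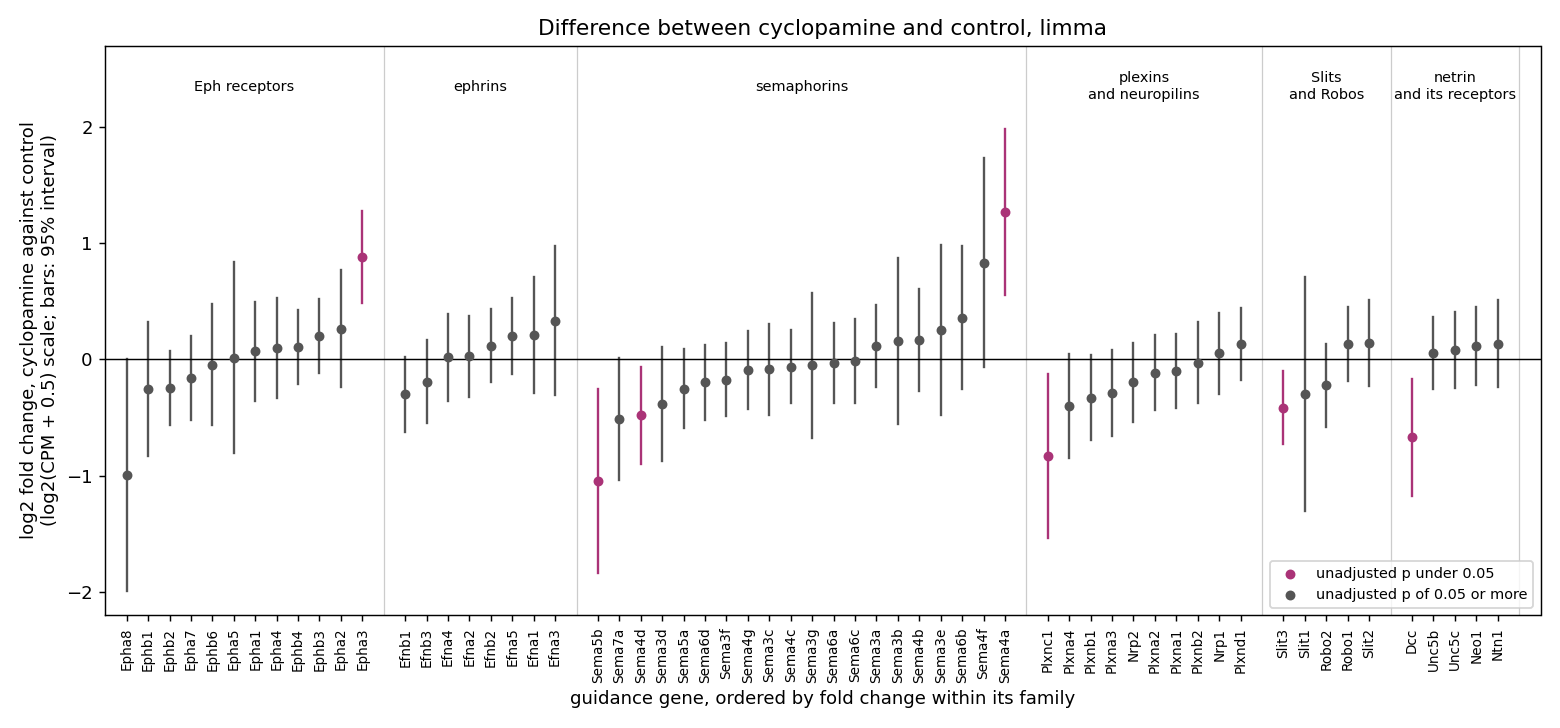
Log2 fold change of cyclopamine against control in limma for the 60 tested guidance genes, by family, with bars for the 95% interval and purple for the 7 genes at an unadjusted p under 0.05. Most points lie within 0.5 of 0, and the points farthest out are Sema4a at 1.27 and Sema5b at -1.04.

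Among the Eph receptors, Epha3 was the gene with the smallest p of all 60. It encodes a receptor for the ephrins anchored by lipid, and lies on the minus strand of chromosome 16, 63543534 to 63864175 in mm10. Epha3 measured 48.4 and 61.6 CPM in control libraries and 84.2 and 121 CPM with cyclopamine, from 469, 838, 1067 and 1498 reads. Both cyclopamine libraries lay above both controls, although they differed from each other by more than the controls did. The log2 fold change was 0.88 (SE 0.19, 95% interval 0.49 to 1.28), or 1.84-fold, with a limma adjusted p = 0.0705, which misses the threshold. The call therefore turned on the test: the adjusted p was 0.0717 in edgeR's quasi-likelihood test and 0.0130 in DESeq2, and the authors' deposited table gives a log2 fold change of 0.90 at a false discovery rate of 0.00665. Leaving out 1 library kept Epha3 higher in cyclopamine, at 0.71 without control 1, 1.05 without control 2, 1.15 without cyclopamine 1 and 0.62 without cyclopamine 2. Such a fit leaves 1 library in a group, which is assumed to vary like the other group, so its p says little about the condition with 1 library. The limma adjusted p in these fits was 0.188, 0.0249, 1.77e-05 and 0.277 in that order.

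The upstream sequences of Epha3 and of its close relative Epha4 are shown because the treatment is known to act through GLI factors, which bind GACCACCCA, and because the 2 receptors gave different values. Each is the 250 bases before the RefSeq transcription start (GRCm38.p6), 5′ to 3′ on the gene's own strand, with capitals for the 6-base core CCACCC or its reverse complement GGGTGG. The windows are chr16:63864176-63864425 and chr1:77515089-77515338, both on the minus strand.
Epha3: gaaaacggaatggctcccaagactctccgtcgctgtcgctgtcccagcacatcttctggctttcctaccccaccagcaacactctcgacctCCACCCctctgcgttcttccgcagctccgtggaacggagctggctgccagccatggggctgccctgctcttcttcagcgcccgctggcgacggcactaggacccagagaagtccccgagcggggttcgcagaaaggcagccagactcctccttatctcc
Epha4: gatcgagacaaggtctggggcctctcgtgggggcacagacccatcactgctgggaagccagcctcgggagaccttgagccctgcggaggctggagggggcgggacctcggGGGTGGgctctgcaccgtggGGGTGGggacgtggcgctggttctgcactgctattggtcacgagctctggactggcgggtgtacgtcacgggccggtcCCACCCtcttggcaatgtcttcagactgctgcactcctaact
The core occurs 1 time upstream of Epha3 and 3 times upstream of Epha4. RefSeq windows from 250 bases before to 50 after a start were found for 54 of the 63 genes, 70 windows in all, and both strands were searched. The full GACCACCCA was in 0 of the 70, against 0.253% of the 32851 windows of all genes, and with N for any base (GACCNCCCA) it was in 1, at Ephb3, against 0.977%. The core alone, which lies within GACCACCCA, was in 51.4% of the 70 windows and 31.5% of all. These shares were not matched for base composition, and some genes have several windows, which can overlap, so they do not show an enrichment. A match in letters is a description of the window and says nothing about binding.

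Epha4, which encodes the receptor by which limb-innervating motor axons choose dorsal or ventral paths, measured 218 and 309 CPM in control libraries and 229 and 339 CPM with cyclopamine. The groups overlapped, and the 2 replicates of each condition lay farther apart than the conditions did (log2 fold change 0.10, 95% interval -0.33 to 0.53). Epha7, another receptor of limb mesenchyme, measured 68.3 and 85.9 CPM against 61.1 and 76.9 CPM (-0.16, interval -0.52 to 0.20). Set within each library, Epha3 had 0.222 and 0.199 reads per Epha4 read in the controls and 0.368 and 0.358 in cyclopamine. Per Epha7 read it had 0.709 and 0.717 in the controls and 1.38 and 1.58 in cyclopamine. In these ratios, chosen after the values were seen, the conditions did not overlap and the spread within each was smaller than the gap between them. An exact two-sided permutation test of 2 against 2 libraries cannot go below 0.333, and it gave that value for each.

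**Figure D3:**
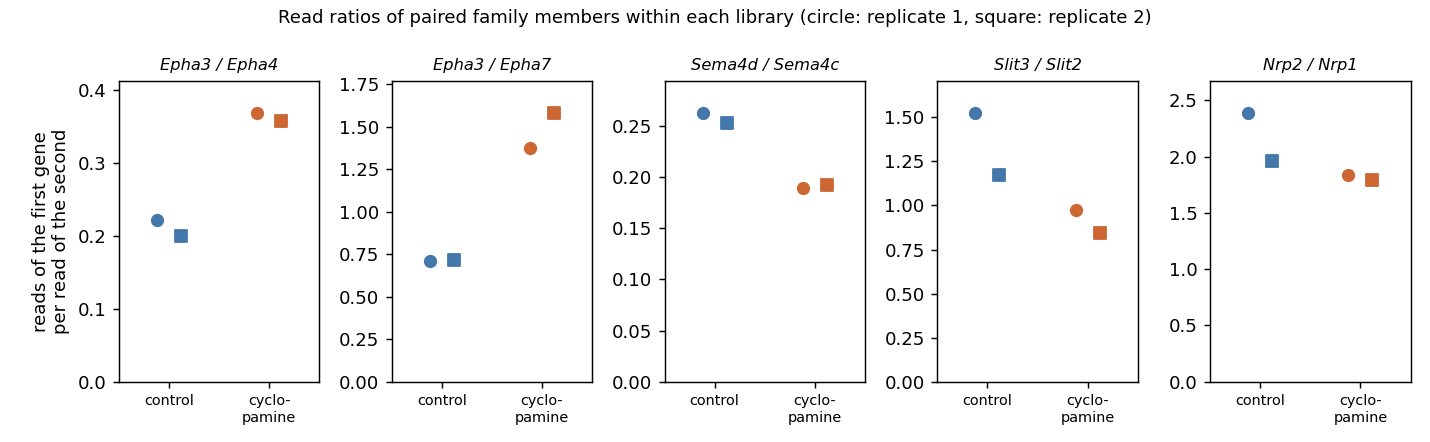
Reads of one family member per read of another within each library, with circles for replicate 1 and squares for replicate 2, for 5 pairs chosen after the values were seen. Epha3 per Epha4 read runs from 0.199 to 0.222 in control and from 0.358 to 0.368 in cyclopamine, and Slit3 per Slit2 read from 1.17 to 1.52 and from 0.845 to 0.974.

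The remaining Eph receptors gave small or weakly measured differences. Epha8, a receptor known from the nervous system, rested on few reads, 16 and 19 in the controls and 8 and 5 in cyclopamine. It measured 1.65 and 1.40 CPM against 0.631 and 0.405 CPM (log2 fold change -0.997, SE 0.47, limma adjusted p = 0.857). The groups were apart, and this gene moved beside neural markers that were lower in the same libraries; their part in it was not tested. Ephb2, a kinase receptor for transmembrane ephrins, measured 71.9 and 77.7 CPM against 60.3 and 65.7 CPM (-0.25, SE 0.15). Ephb3 went the other way, with 61.4 and 57.7 CPM against 69.4 and 67.9 CPM (0.20, SE 0.15). Ephb4, the venous partner of Efnb2, measured 169 and 155 CPM against 163 and 186 CPM (0.10, SE 0.15), with the groups overlapping. Over the 12 tested Eph receptors the median was 0.04, with 7 higher and 5 lower (41.7%, against 49.0% of all genes tested). An unadjusted p under 0.05 in limma was reached by 1 (8.33%, against 5.82% of all genes).

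The ephrins were close to control. Of the 8, 0 reached an unadjusted p under 0.05 in limma (against 5.82% of all genes), and their median was 0.07. Positive values were seen in 6 of 8 and negative ones in 2 (25%, against 49.0% of all genes tested). All 5 lipid-anchored ephrin-A genes had positive fold changes, from 0.02 for Efna4 to 0.33 for Efna3. For Efna3 this sign rested on control 2, at 6.17 CPM beside 12.5, 13.3 and 9.48 CPM in control 1, cyclopamine 1 and cyclopamine 2, and without control 2 the value was -0.15. Control 1 of Efna1 (38.3 CPM) and of Efna2 (48.1 CPM) also lay above both cyclopamine libraries (36.9 and 29.3 CPM, 47.8 and 42.7 CPM). Control 2 carried the lean of the whole family: without it 2 of 8 were higher and 6 lower, with a median of -0.12. Of the 8, 7 were higher without control 1, 4 without cyclopamine 1 and 6 without cyclopamine 2. Efna5, a ligand of Epha3 and Epha4, measured 91.6 and 78.8 CPM in control libraries and 103 and 92.8 CPM with cyclopamine (0.20, SE 0.15). Efnb1, the X-linked ephrin that sets tissue boundaries, measured 96.9 and 90.7 CPM against 70.9 and 81.3 CPM. Both cyclopamine libraries were below both controls (-0.30, SE 0.15, limma adjusted p = 0.875). Efnb2 measured 195 and 193 CPM against 209 and 213 CPM, a gap larger than the spread within either group and small in size (0.12, SE 0.15). Efnb3 measured 71.6 and 54.2 CPM against 55.2 and 53.9 CPM (-0.19, SE 0.17), where control 1 stood alone.

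Semaphorins held the widest range of differences, from -1.04 to 1.27. Of the 20, 7 were higher and 13 lower (65%, against 49.0% of all genes tested), with a median of -0.06. An unadjusted p under 0.05 in limma was reached by 3 (15%, against 5.82% of all genes). Leaving out 1 library changed the count of lower semaphorins. It was 14 of 20 without control 1 and 11 without control 2. Without cyclopamine 1 it was 10, with a median of 0.02, and without cyclopamine 2 it was 11. Sema4a, a transmembrane semaphorin also known from immune cells and endothelium, measured 2.68 and 1.62 CPM in control libraries and 5.84 and 5.67 CPM with cyclopamine, from 26, 22, 74 and 70 reads. The cyclopamine libraries were nearly alike and stood above both controls. The log2 fold change was 1.27 (SE 0.34, 95% interval 0.55 to 1.99), with a limma adjusted p = 0.255, and between 0.0782 and 0.610 when a library was left out. Sema4f, of the same class, rested on 11, 11, 23 and 30 reads and measured 1.13 and 0.808 CPM against 1.81 and 2.43 CPM (0.83, SE 0.42). Sema4d, the ligand of Plxnb1, went the other way at 21.3 and 21.5 CPM against 14.7 and 15.6 CPM. Within each group its 2 libraries were close, and the difference on the log2 scale was -0.48 (SE 0.20, limma adjusted p = 0.739). Per read of Sema4c, Sema4d had 0.262 and 0.253 reads in the controls and 0.190 and 0.192 in cyclopamine. Sema4c itself measured 81.0 and 84.8 CPM against 77.4 and 81.4 CPM.

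Both class 5 semaphorins, which carry thrombospondin repeats, were lower in both cyclopamine libraries than in either control, as were 15.8% of all genes tested. With 2 genes this is no result for the class. Sema5b measured 4.13 and 3.53 CPM against 2.05 and 1.22 CPM, from 40, 48, 26 and 15 reads (log2 fold change -1.04, SE 0.37, limma adjusted p = 0.612). Sema5a, expressed at a far higher level, measured 241 and 279 CPM against 198 and 239 CPM (-0.25, SE 0.16). For Sema5a the gap between the highest cyclopamine library and the lowest control was narrow, and the value was -0.12 without cyclopamine 1. Sema7a, the lipid-anchored semaphorin read by Plxnc1, measured 9.80 and 9.92 CPM against 6.55 and 6.97 CPM (-0.51, SE 0.25, limma adjusted p = 0.875). The secreted class 3 genes had a median of -0.05 over 7, from -0.38 for Sema3d to 0.25 for Sema3e. Sema3a, a repellent of motor and sensory axons, measured 102 and 136 CPM against 121 and 135 CPM (0.12, SE 0.16), with overlapping groups. Sema3f, which acts through Nrp2, measured 111 and 108 CPM against 91.0 and 103 CPM (-0.17, SE 0.15). The 4 class 6 genes ran from -0.20 for Sema6d to 0.36 for Sema6b.

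**Figure D4:**
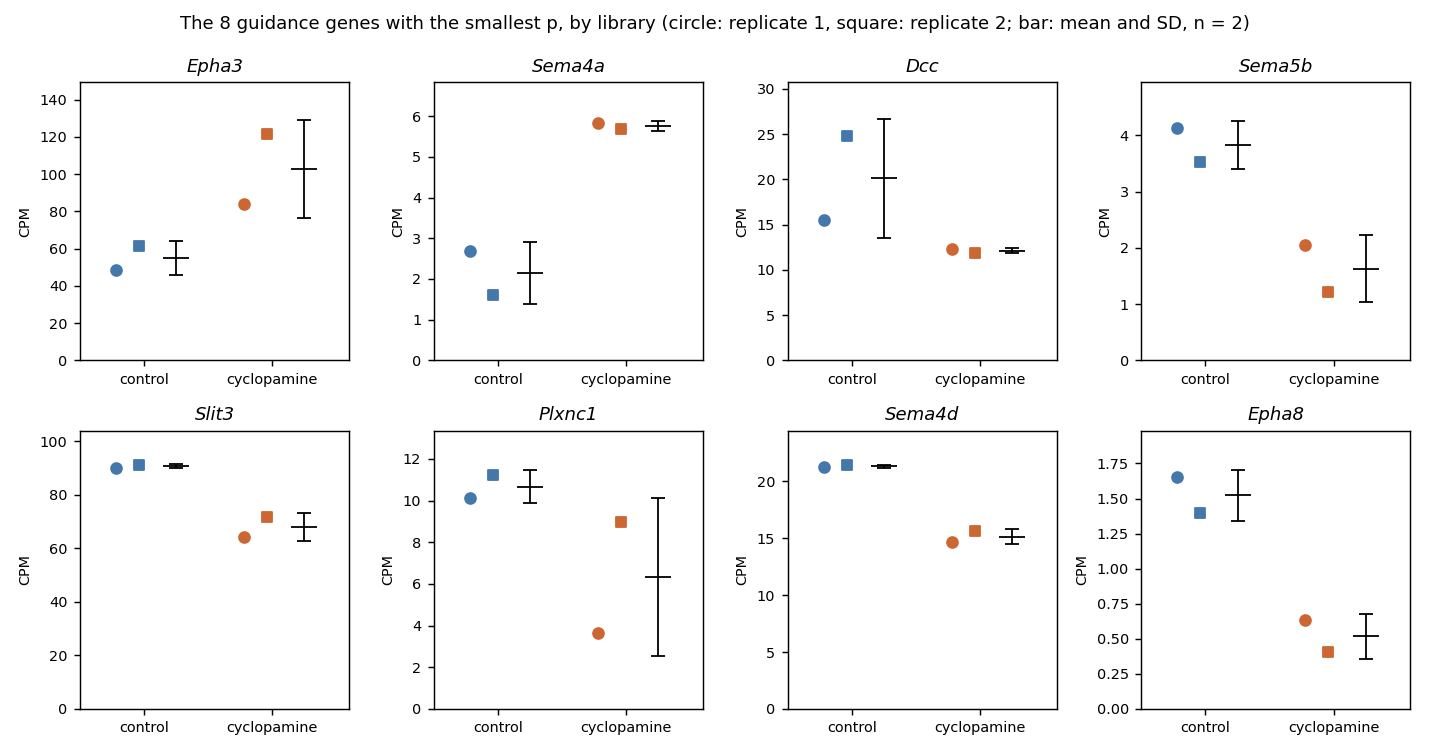
CPM of the 8 guidance genes with the smallest p in limma, by library, with circles for replicate 1, squares for replicate 2 and black bars for mean and SD (n = 2); each axis starts at 0. Cyclopamine lies above control for Epha3 and Sema4a and below it for the other 6, and the cyclopamine libraries of Plxnc1 stand apart at 3.63 and 8.99 CPM.

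Plexins and neuropilins, the semaphorin receptors, were mostly a little below control, with 8 of the 10 tested lower (80%, where 49.0% of all genes tested were lower) and a median of -0.16. Cyclopamine 1 carried much of this: without it 7 of 10 were lower and the median was -0.05, against -0.26 without cyclopamine 2. Plxnc1 measured 10.1 and 11.2 CPM in control libraries and 3.63 and 8.99 CPM with cyclopamine. Its difference of -0.83 on the log2 scale (SE 0.33, limma adjusted p = 0.710) moved with cyclopamine 1: it was -0.23 without that library and -1.43 without cyclopamine 2. The limma adjusted p was 0.0259 in the latter fit, in which the only cyclopamine library is assumed to vary like the controls. All 4 class A plexins, the signalling receptors for secreted semaphorins, had negative values, from -0.40 for Plxna4 to -0.10 for Plxna1. Plxna4 measured 31.0 and 37.5 CPM against 20.7 and 31.9 CPM, and Plxna3 measured 67.0 and 73.3 CPM against 48.3 and 68.1 CPM. For both the groups overlapped, and cyclopamine 1 was the lowest library. Without cyclopamine 1 the values became -0.09 for Plxna4 and -0.04 for Plxna3. Plxnb1, the receptor of Sema4d, measured 108 and 152 CPM against 94.98 and 109 CPM (-0.33, SE 0.17, limma adjusted p = 0.895), and control 2 stood above the other 3 libraries. Without control 2 the Plxnb1 value was -0.09. Plxnb2, at a higher level, measured 295 and 303 CPM against 261 and 329 CPM (-0.03, SE 0.16).

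The neuropilins differed little. Nrp2 measured 344 and 353 CPM in control libraries and 277 and 333 CPM with cyclopamine, below both controls in each (-0.20, SE 0.16). The value was -0.07 without cyclopamine 1 and -0.33 without cyclopamine 2. Nrp1, also a co-receptor for VEGF, measured 144 and 180 CPM against 151 and 185 CPM (0.05, SE 0.16), and followed the replicate number rather than the treatment. Reads of Nrp2 per read of Nrp1 were 2.38 and 1.96 in the controls and 1.84 and 1.79 in cyclopamine. Plxnd1, a plexin of endothelium, measured 139 and 139 CPM against 144 and 161 CPM (0.13, SE 0.15), beside endothelial markers that were higher as described above; their part in this was not tested.

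Among Slits and Robos, Slit3 had the smallest p in limma, and differences between these genes were not tested. Slit3 measured 90.2 and 91.2 CPM in control libraries and 64.2 and 71.8 CPM with cyclopamine, from 874, 1241, 814 and 886 reads. Every control value was above every cyclopamine value, and the controls were nearly equal. The log2 fold change was -0.41 (SE 0.15, 95% interval -0.73 to -0.10), or 0.750-fold, with a limma adjusted p = 0.612, and it ran from -0.49 to -0.33 when a library was left out. Slit2, the second mesenchymal Slit, measured 59.2 and 77.7 CPM against 66.0 and 85.0 CPM (0.14, SE 0.18), higher in replicate 2 of each condition. Per read of Slit2, Slit3 had 1.52 and 1.17 reads in the controls and 0.974 and 0.845 in cyclopamine. Slit1, expressed mainly in neural tissue, was carried by replicate 2, at 1.24 and 3.89 CPM against 1.18 and 2.51 CPM (-0.30, SE 0.47). Robo1 measured 186 and 171 CPM against 184 and 209 CPM (0.13, SE 0.15), and Robo2 measured 88.4 and 102 CPM against 69.9 and 94.6 CPM (-0.22, SE 0.17). The Robo2 value was -0.0055 without cyclopamine 1 and -0.44 without cyclopamine 2. Neither Robo1 nor Robo2 showed groups apart.

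Of netrin and its receptors, Dcc differed most. Dcc, the receptor by which commissural axons follow netrin, measured 15.5 and 24.8 CPM in control libraries and 12.3 and 11.9 CPM with cyclopamine, from 150, 337, 156 and 147 reads. The cyclopamine libraries were alike and below both controls, while control 2 was well above control 1. The log2 fold change was -0.67 (SE 0.24, 95% interval -1.17 to -0.17, limma adjusted p = 0.594), and it was -0.34 without control 2 and -1.002 without control 1. Neural markers showed the same order of libraries, with control 2 highest and the cyclopamine libraries alike (175, 221, 111 and 111 CPM summed), and their part in the Dcc values was not tested. Neo1, a receptor related to Dcc that also reads repulsive guidance molecules, measured 225 and 239 CPM against 227 and 277 CPM (0.12, SE 0.16). Ntn1, the ligand, measured 29.7 and 25.2 CPM against 30.1 and 30.1 CPM (0.14, SE 0.18). Unc5b, known from vessels, measured 157 and 156 CPM against 154 and 172 CPM (0.06, SE 0.15), and Unc5c measured 102 and 104 CPM against 98.1 and 121 CPM (0.08, SE 0.15). For Neo1, Unc5b and Unc5c cyclopamine 2 stood above the other libraries, and without it each value turned slightly negative.

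Guidance genes outside these names were read from a list of 68 further ligands, receptors, adhesion molecules and signalling partners, of which 67 were in the table and 62 were tested. Of the 62, 25 lay higher and 37 lower (59.7%, against 49.0% of all genes tested), around a median of -0.02. In limma 1 of the 62 passed over all genes, against 0.28% of genes tested. The gene that fell was Cntn2, which encodes contactin 2, an adhesion molecule of commissural and motor axons. Cntn2 measured 13.8 and 17.3 CPM in control libraries and 4.50 and 6.40 CPM with cyclopamine (-1.44, SE 0.26, limma adjusted p = 0.0290). Without control 2 the value was -1.29, with 1 control library left and a limma adjusted p = 0.131, which ends the call. Chl1, a neural adhesion molecule of the L1 family, measured 4.02 and 5.66 CPM against 1.34 and 0.891 CPM (-1.72, SE 0.38, limma adjusted p = 0.0877). Robo3, the divergent Robo of commissural neurons, had 13 and 81 reads in the controls and 2 and 2 in cyclopamine (limma adjusted p = 0.141), and the authors' deposited table gives it a false discovery rate of 0.000623. For Robo3 the adjusted p was 0.0342 in edgeR's quasi-likelihood test and 0.00581 in DESeq2. Its limma log2 fold change was -2.385, and -3.29 without control 1, -2.38 without cyclopamine 1 and -2.39 without cyclopamine 2. All these fits keep control 2, the library with 81 reads. Without control 2, Robo3 fell below 1 CPM and was not tested. Chl1 ran from -1.94 to -1.50 when a library was left out, with 1 library in a group. These 3 genes are known from neurons, and neural markers were lower in the same libraries; their part in these values was not tested. Robo4, the Robo of endothelium, measured 11.97 and 13.0 CPM against 17.9 and 20.5 CPM (0.60, SE 0.21, limma adjusted p = 0.575), beside endothelial markers that were higher in cyclopamine. Of those 12 markers 0 passed the threshold, and their part in the Robo4 values was not tested.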

How the data were processed

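Forelimb RNA was sequenced in 2 control and 2 cyclopamine libraries. Per the submitters' processing notes, edgeR 3.4.2, HTSeq 0.5.4p5, TopHat2 2.0.9, SAMtools, Bowtie and the mm10 build were used, listed without role; not given in the sources used here: annotation, strand and treatment of multi-mapped reads. Exon lengths came from GENCODE vM21. The deposited signal is counts per 1000000 of an effective library size, and 100% of values in each library were whole multiples of what 1 read is worth (within 0.01), so reads could be recovered. The authors' deposited table gives log2 fold changes, p-values and false discovery rates, from a test they do not name; an exact test in edgeR on those reads, chosen after seeing the data, called the same 80 genes. Exons of 15 of the 63 genes overlap another annotated gene, 12 on the opposite strand, so their values are uncertain.

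The limma comparison (version 3.58.1, R 4.3.3) took genes averaging 1 CPM or more, used log2(CPM + 0.5) and a variance trend with intensity, and was two-sided and Benjamini-Hochberg adjusted over 13568 genes; the script was tested on simulated data. Alternatives were edgeR 4.0.16, DESeq2 1.42.0, other filters, pseudocounts, scalings and variance models, a replicate block, and leaving out each library. Genes named are those past the threshold or called in the authors' table, the 4 smallest p and the 3 highest levels per kilobase in each family, and those with groups apart and a log2 fold change of at least 0.5; further genes were named with their values known. The members and lists were chosen with earlier results of these data known. Further marker lists (neural crest, myoblast, ectoderm and macrophage) had ratios of summed level, cyclopamine to control, of 0.886, 1.12, 1.06 and 0.883, with 0 genes past the threshold in each.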

Additional observations from a re-analysis of the deposited data

How the results depend on the processing

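The guidance genes tested had a median log2 fold change between -0.11 and 0.04 when each library was left out, and between -0.03 and -0.02 under the other alternatives. The count of guidance genes past the threshold was 0 in limma and stayed 0 with other filters, pseudocounts, scalings and no intensity trend, and in edgeR's quasi-likelihood test; it was 1 in DESeq2, 1 in edgeR's exact test, and from 0 to 1 when a library was left out. All genes past the threshold numbered 38, and 2 without a filter, 0 without an intensity trend (where Gli1 at -3.10 and Ptch1 at -1.44 lost their calls, with adjusted p of 0.0732 and 0.31), 20 with library totals, 80 in edgeR's exact test and from 43 to 122 when a library was left out. Ptch1, at -1.44, also lost its call without a filter (adjusted p = 0.199). Cntn2 lost its call with its value nearly in place without a filter (-1.44), without a trend (-1.44) and with library totals (-1.44), and at -1.29 without control 2. With a replicate block, limma called 351 genes (2.59% of those tested) and 4 of 60 guidance genes (Epha3, Sema4a, Dcc and Plxnc1), and Hhip at -1.04 passed (adjusted p = 0.00644). The labels tie the number to no litter or day; replicate differences correlated between conditions at r = 0.27 across the 13568 genes and 0.54 across the 60, and genes are not independent replicates. Of 39 named genes, 29 kept their direction under every alternative run. The other 10 turned in a fit that left out a library, where their log2 fold changes ranged as follows: Efna3 from -0.15 to 0.81 (turned without control 2), Efnb3 from -0.39 to 0.0087 (turned without control 1), Epha4 from -0.18 to 0.39 (turned without control 1 and without cyclopamine 2), Neo1 from -0.028 to 0.26 (turned without cyclopamine 2), Nrp1 from -0.11 to 0.21 (turned without control 1 and without cyclopamine 2), Plxnb2 from -0.19 to 0.14 (turned without cyclopamine 1), Sema3a from -0.094 to 0.33 (turned without control 1), Slit2 from -0.054 to 0.34 (turned without control 1 and without cyclopamine 2), Unc5b from -0.025 to 0.14 (turned without cyclopamine 2) and Unc5c from -0.071 to 0.23 (turned without cyclopamine 2). The cause was not tested. Low read numbers limit the precision for genes such as Epha8, Sema4f, Slit1, Sema5b, Sema4a and Robo3.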

Other observations

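Replicates of a condition differed in a like direction in both conditions for many guidance genes. Replicate 2 was above replicate 1 in both conditions for 31 of the 60 tested (51.7%, where 30.6% of the 13568 genes tested did so), and below in both for 14 (23.3%, where 30.7% of all did so). The conditions differed in sign for 15 (25%, against 38.7% of all). The gap between the 2 controls was larger in size than the log2 fold change of cyclopamine in 27 of 60 (45%), a smaller share than the 63.0% of all genes tested. Some genes had large gaps of the same sign. For the receptor Epha4 the log2 difference of replicate 2 from replicate 1 was 0.50 in control and 0.57 in cyclopamine. Others were the receptors Epha3 (0.34 and 0.53) and Epha7 (0.33 and 0.33). The repellent Slit2 (0.39 and 0.36) and the secreted semaphorin gene Sema3d (0.44 and 0.44) also belonged here. Ephrin-A genes lay the other way, with Efna1 at -0.85 and -0.33 and Efna3 at -0.96 and -0.46. Some marker lists differed along the replicate number too. Ectoderm markers summed to 467 and 343 CPM in control replicates 1 and 2, and to 495 and 361 CPM with cyclopamine. Limb mesenchyme markers lay the other way, at 2084 and 2205 CPM in control and 2135 and 2508 CPM with cyclopamine. Their part in the replicate differences was not tested. Nothing in the labels says what the replicate number stands for.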
